A study of Mus musculus with 8 samples.

Results

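The unfolded protein response and the integrated stress response were followed through 36 genes, picked by gene symbol from the 32574 genes of the deposited table. All 36 had a row. They comprised 14 chaperones and folding enzymes of the endoplasmic reticulum (ER), 4 genes of ER-associated degradation, 4 genes that sense or carry the ER signal, and 14 genes of the Atf4 arm. The messenger RNA came from epithelial cells of mouse skin epidermis, isolated by fluorescence-activated cell sorting, and the series compared basal epidermal cells of ablated and control skin in a study of clonal expansion and tissue fluidity. The labels give 4 groups of 2 libraries each. Lrig1 ablation and K14 ablation carry a basal lineage ablation as their genotype, and Lrig1 control and K14 control are wild type. The protein K14 is a keratin of the basal layer, and Lrig1 is known as a stem cell marker of the upper follicle. The sources used here do not say whether K14 and Lrig1 denote the driver of the ablation, the cells that were sorted or those that were ablated, and give no strain, age, ablating allele or agent, or time after ablation. Nothing states that a group's 2 libraries are from different mice, and p-values therefore cover the spread between libraries alone, which may be technical.

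Unfolded protein in the ER is sensed by 3 membrane proteins, of which Ern1 (IRE1) splices the Xbp1 transcript, Atf6 is cut to release a transcription factor and Eif2ak3 (PERK) phosphorylates the initiation factor eIF2. The first 2 routes raise ER chaperones and degradation genes, while phosphorylated eIF2 slows general translation and favours that of Atf4, which acts on genes of amino acid synthesis and transport. Other eIF2 kinases feed into the same Atf4 route without ER stress, which is why the whole is called the integrated stress response. In epidermis the unfolded protein response is known to accompany keratinocyte differentiation. Gene-level read counts do not show Xbp1 splicing, Atf6 cleavage or translation of Atf4.

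The arms are usually told apart by sequence elements in promoters, so the promoters are shown first. Only some of these genes held such an element. RefSeq promoters of build GRCm38.p6, 250 bases before to 50 bases after the gene's start, were found for 32 of the 36 genes, and 4 motifs were searched on both strands. The ER stress response element (ERSE: CCAAT, 9 bases of any kind, CCACG), bound by Atf6 and Xbp1 together with NF-Y, was held by 7 of 12 chaperone promoters (Hspa5, Hsp90b1, Calr, Canx, Pdia6, Dnajc3 and Creld2) and by that of Syvn1. It was held by 0.119% of all 32851 promoters and by 0.137% of all 27025 genes. Its variant ERSE-II (ATTGG, any base, CCACG) was held by Dnajb11 and Herpud1, against 0.0444% of all genes. The CCAAT-enhancer binding protein and Atf response element (CARE, TGATGNAA), which Atf4 binds, was held by 5 of 13 Atf4 arm promoters (Trib3, Asns, Chac1, Nupr1 and Slc7a11), by Herpud1 and by 0 of 12 chaperone promoters, against 4.51% of all genes. No Atf4 arm promoter held an ERSE. The unfolded protein response element (UPRE, TGACGTGG) was found in 0 of the 32 promoters and in 0.714% of all genes. No matches overlapped each other. These are matches of letters in a short window and describe the sequences only.

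The first 3 chaperones with an ERSE are printed with that motif in capitals, 5′ to 3′ in the direction of the gene. Hspa5 lies at chr2:34771840-34772139, plus strand; Hsp90b1 at chr10:86705395-86705694, minus strand; and Calr at chr8:84846882-84847181, minus strand. Hsp90b1 held the motif in both orientations.
Hspa5: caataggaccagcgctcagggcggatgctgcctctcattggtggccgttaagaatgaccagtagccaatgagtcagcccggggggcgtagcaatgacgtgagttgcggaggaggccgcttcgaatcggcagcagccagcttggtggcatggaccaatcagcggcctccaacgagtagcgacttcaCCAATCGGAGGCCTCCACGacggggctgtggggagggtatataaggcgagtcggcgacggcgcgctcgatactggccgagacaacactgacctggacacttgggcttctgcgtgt
Hsp90b1: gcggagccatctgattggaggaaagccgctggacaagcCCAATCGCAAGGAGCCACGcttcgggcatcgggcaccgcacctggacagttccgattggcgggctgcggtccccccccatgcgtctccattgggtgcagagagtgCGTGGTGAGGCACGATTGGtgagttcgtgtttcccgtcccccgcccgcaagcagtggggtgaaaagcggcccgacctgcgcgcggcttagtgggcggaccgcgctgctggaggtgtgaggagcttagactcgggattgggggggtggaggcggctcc
Calr: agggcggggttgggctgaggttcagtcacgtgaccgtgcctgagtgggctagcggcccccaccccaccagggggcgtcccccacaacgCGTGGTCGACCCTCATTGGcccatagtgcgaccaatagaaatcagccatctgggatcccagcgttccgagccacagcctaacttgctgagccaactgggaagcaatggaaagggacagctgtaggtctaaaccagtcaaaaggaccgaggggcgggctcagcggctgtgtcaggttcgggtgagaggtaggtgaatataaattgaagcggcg

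The first 3 Atf4 arm genes with a CARE follow in the same way, with the CARE in capitals. Trib3 lies at chr2:152344011-152344310, minus strand; Asns at chr6:7693160-7693459, minus strand; and Chac1 at chr2:119350992-119351291, plus strand. Read on the strand shown, a reverse match has the letters TTNCATCA.
Trib3: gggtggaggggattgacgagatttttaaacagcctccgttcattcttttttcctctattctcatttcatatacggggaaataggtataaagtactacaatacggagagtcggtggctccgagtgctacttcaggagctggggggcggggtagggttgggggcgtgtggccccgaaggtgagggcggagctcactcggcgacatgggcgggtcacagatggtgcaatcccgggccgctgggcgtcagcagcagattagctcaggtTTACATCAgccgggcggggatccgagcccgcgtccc
Asns: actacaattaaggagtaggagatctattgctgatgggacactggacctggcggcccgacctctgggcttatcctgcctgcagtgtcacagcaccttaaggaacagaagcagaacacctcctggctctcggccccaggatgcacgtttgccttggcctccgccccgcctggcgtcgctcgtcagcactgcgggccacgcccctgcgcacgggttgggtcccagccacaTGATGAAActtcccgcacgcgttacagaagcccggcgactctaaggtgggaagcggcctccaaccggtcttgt
Chac1: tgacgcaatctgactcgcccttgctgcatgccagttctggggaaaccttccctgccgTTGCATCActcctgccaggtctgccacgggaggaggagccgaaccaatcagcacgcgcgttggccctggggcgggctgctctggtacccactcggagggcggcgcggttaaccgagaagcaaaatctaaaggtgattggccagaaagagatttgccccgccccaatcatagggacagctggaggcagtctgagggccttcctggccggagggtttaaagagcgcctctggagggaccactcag

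Herpud1 and Slc7a11 are added because both passed the test below and held a motif, a choice made after their values were seen. Dnajb9, which passed in the same comparison, held none of the motifs searched. Xbp1 and Cebpb, which passed between the controls, held none either. Herpud1 (chr8:94386179-94386478, plus strand) holds a CARE and, closer to the start, an ERSE-II, so it carries letters of both arms. Slc7a11 (chr3:50443564-50443863, minus strand) holds 2 CAREs in opposite orientations.
Herpud1: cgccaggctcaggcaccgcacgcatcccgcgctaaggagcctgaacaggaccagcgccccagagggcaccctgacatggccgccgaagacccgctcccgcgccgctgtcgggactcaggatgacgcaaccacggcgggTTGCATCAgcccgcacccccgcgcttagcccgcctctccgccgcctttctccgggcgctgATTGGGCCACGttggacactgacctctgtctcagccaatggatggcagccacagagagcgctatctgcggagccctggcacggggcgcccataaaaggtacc
Slc7a11: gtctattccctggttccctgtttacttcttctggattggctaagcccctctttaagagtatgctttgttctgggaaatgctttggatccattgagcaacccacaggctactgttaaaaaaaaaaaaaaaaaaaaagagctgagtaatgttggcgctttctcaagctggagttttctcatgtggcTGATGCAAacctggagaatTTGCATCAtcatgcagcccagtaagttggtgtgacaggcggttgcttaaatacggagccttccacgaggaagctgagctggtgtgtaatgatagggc

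**Figure D1:**
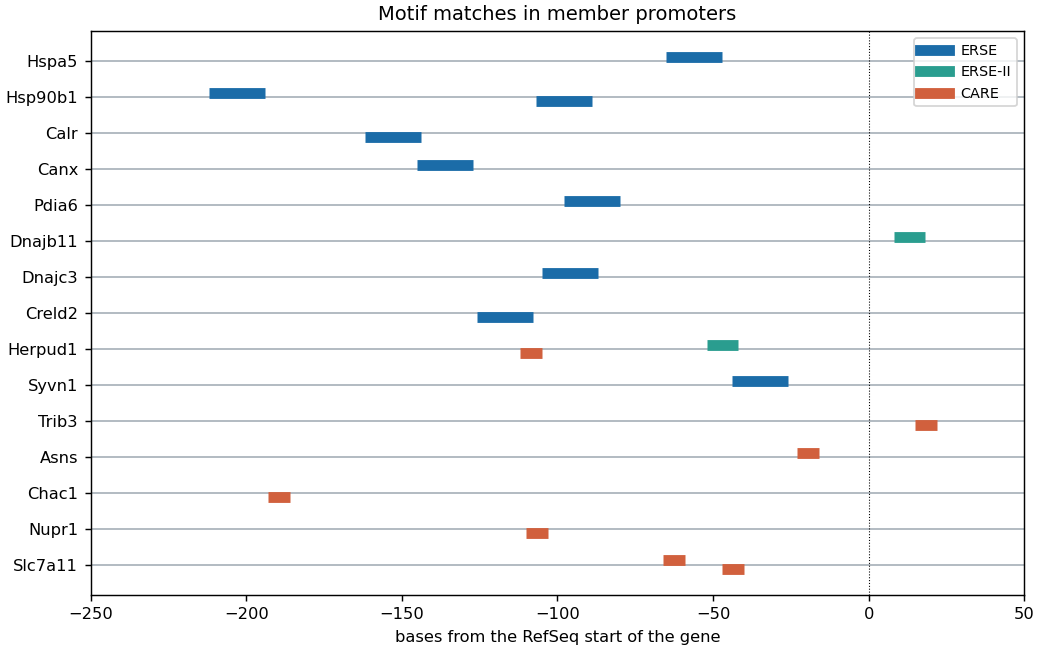
Motif matches in the promoters of the 15 genes that held at least 1, by distance in bases from the RefSeq start of the gene; bars mark each match, drawn above the line when forward and below it when reverse. ERSE (blue) and ERSE-II (green) lie in chaperone and degradation genes, and CARE (orange) lies in Atf4 arm genes and Herpud1.

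Depth, recovered from the deposited values, was 6458636 to 11654135 reads per library, so that a floor of 3 reads equals a normalised read count of 2.12 to 4.23 (counting error only). The control pairs were close, with a standard deviation of the log2 difference between libraries of 0.40 in K14 control and 0.50 in Lrig1 control, against 0.82 in K14 ablation and 0.85 in Lrig1 ablation. Lrig1 ablation 2 stood apart from its partner. The basal keratinocyte markers (8 of 8 detected in every library) summed to a normalised 212824 in Lrig1 ablation 1 and 92543 in Lrig1 ablation 2, against 108890 and 118592 in Lrig1 control, 218404 and 209477 in K14 ablation and 183833 and 180946 in K14 control. Endothelial markers, foreign to sorted epithelium, summed to 54.1 and 135 in Lrig1 ablation, against 965 and 1067 in Lrig1 control and 56.8 to 105 in the K14 libraries. Plasma cell markers, whose cells have a large ER, summed to 2.82 to 12.7 in all 8 libraries.

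Levels are given as the deposited normalised read count per library, and levels of different genes are compared only per kilobase of exon. In K14 control the most abundant transcripts per kilobase were the chaperones Canx (calnexin, 985), Pdia3 (a disulfide isomerase, 873), Hspa5 (BiP, the master ER chaperone, 749) and Calr (calreticulin, 735), with Atf4 itself next at 689.6. The least abundant were Atf4 targets: Chac1, which degrades glutathione, at 3.65, the pseudokinase Trib3 at 8.67 and the cystine transporter Slc7a11 at 9.31. Chac1 had a normalised read count of 7.99 and 6.37 in Lrig1 ablation, 6.99 and 2.82 in Lrig1 control, 7.78 and 5.36 in K14 ablation and 4.06 and 7.88 in K14 control. It was the only member under the filter on low values, so 35 of 36 were tested, among 18140 genes in all. Exons of Hsp90b1, Manf, Eif2ak3, Cebpb, Ddit3, Atf5 and Syvn1 overlap those of other genes by 91 to 632 bases, and Calr and Phgdh have named pseudogenes. Whether counting used the strand is not stated in the sources used here, and reads shared in this way cannot be told apart.

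**Figure D2:**
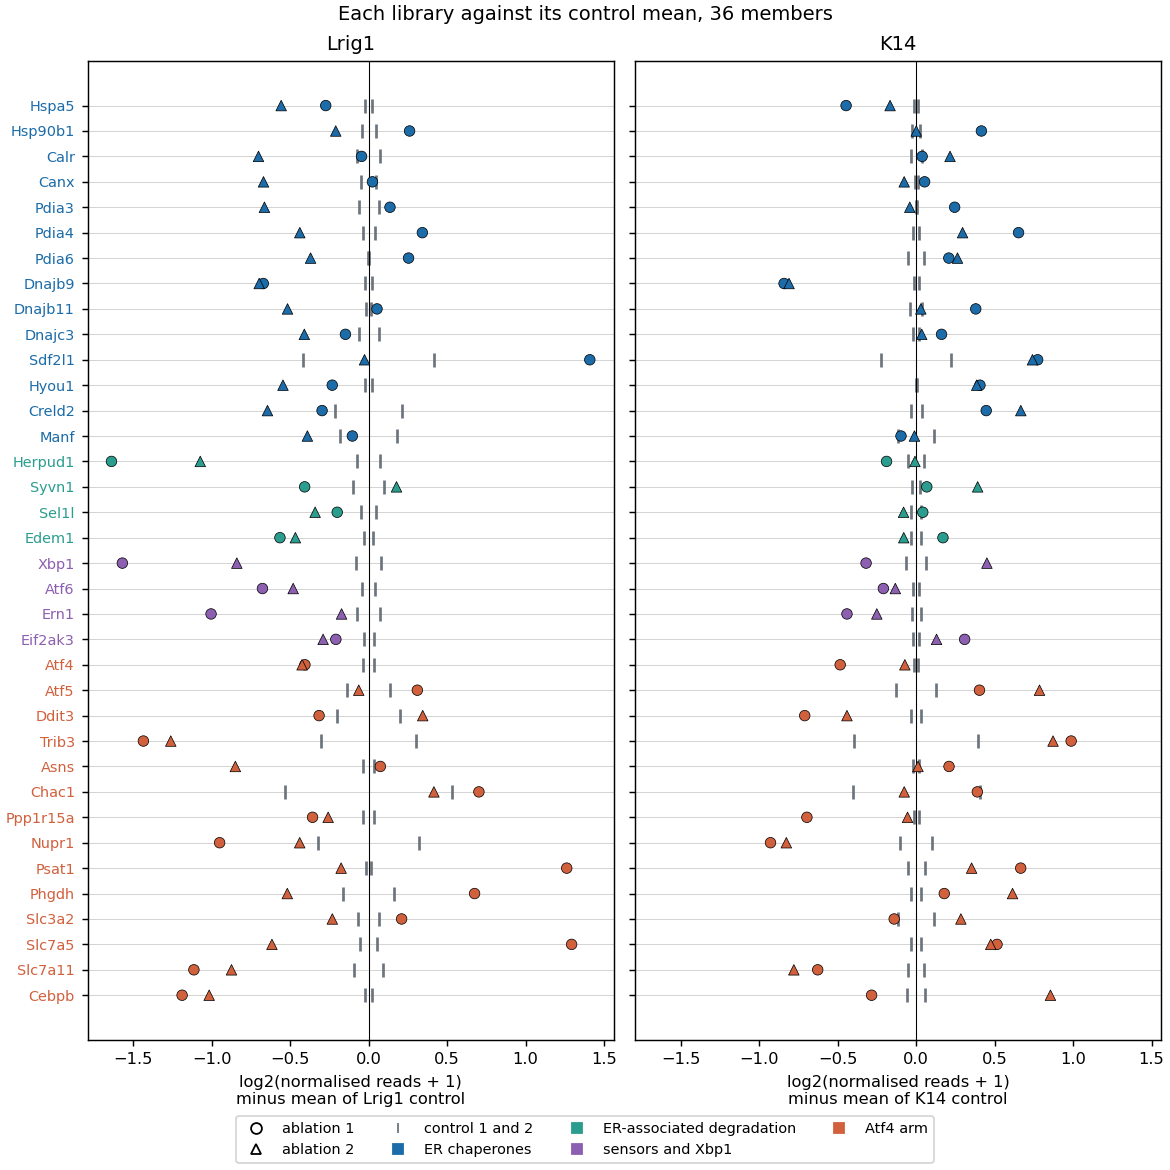
Difference of each library from the mean of its own controls, on the log2(normalised read count + 1) scale, for each of the 36 members, Lrig1 libraries in the left panel and K14 libraries in the right; circles and triangles are ablation 1 and 2 and vertical ticks the 2 controls. Herpud1, Dnajb9 and Slc7a11 are lower in both Lrig1 ablation libraries than in both Lrig1 controls, while Slc7a5 and Psat1 lie above the Lrig1 controls in Lrig1 ablation 1 and below them in Lrig1 ablation 2.

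In Lrig1 ablation against Lrig1 control, 3 of 35 tested members fell and 0 rose: Herpud1, Dnajb9 and Slc7a11, 1 each from the degradation genes, the chaperones and the Atf4 arm. Of all 18140 tested genes 4.06% passed the same threshold (limma adjusted p of 0.05), 3.3% by falling. edgeR called the same 3 members, and DESeq2 called 4 (Herpud1, Slc7a11, Xbp1 and Cebpb, without Dnajb9), with 5.49% of all tested genes called. Members at an unadjusted p under 0.05 numbered 13, against 20.1% of all tested genes. The median log2 difference over the 35 members was -0.31, against -0.02 over all tested genes. In this bulk material fewer cells of a type and less RNA per cell cannot be told apart.

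Herpud1, an ER membrane protein that organises the degradation complex, had a normalised read count of 245 and 363 in Lrig1 ablation, against 803 and 727 in Lrig1 control. The Lrig1 groups were far apart, and the K14 libraries had 346 and 392 in K14 ablation and 409 and 380.0 in K14 control. The log2 difference was -1.36 ± 0.20 (limma adjusted p = 0.0134; SE from the fit of 8 libraries).

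Dnajb9 (ERdj4), a co-chaperone of Hspa5 and a known target of spliced Xbp1, stood at 243 and 239 in Lrig1 ablation and at 393 and 382 in Lrig1 control. Replicates were nearly identical in both groups and did not overlap between them. Its log2 difference was -0.68 ± 0.14 (limma adjusted p = 0.0341). Slc7a11, the cystine-glutamate exchanger that feeds glutathione synthesis, had 80.8 and 95.5 in Lrig1 ablation and 187 and 165 in Lrig1 control, a log2 difference of -0.99 ± 0.20 (limma adjusted p = 0.0349). All 3 calls were lost when either Lrig1 control or either K14 control library was left out. Far fewer of all tested genes were called in these settings too. A fit of the 4 Lrig1 libraries alone called 0 members, with 0.984% of all tested genes called. The 3 calls held when any 1 ablation library was left out, and the direction was the same in every case. Without K14 ablation 1 or without K14 ablation 2, 5 members were called, Xbp1 and Cebpb being added, with 5.9% and 5.8% of all tested genes called.

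The transducers were all lower in both Lrig1 ablation libraries than in both Lrig1 controls, 4 of 4, though none passed limma or edgeR. Of all tested genes 26.4% were below in this way. DESeq2 called Xbp1 (log2 difference of -1.14, DESeq2 adjusted p = 0.00748), which was called in 4 of 17 alternatives (adjusted p of 0.00748 to 0.344). Xbp1 had 349.7 and 580.3 in Lrig1 ablation and 1099 and 983 in Lrig1 control (-1.20 ± 0.30, limma adjusted p = 0.0651). Atf6 had 532 and 609 in Lrig1 ablation and 825 and 875 in Lrig1 control (-0.58 ± 0.14, limma adjusted p = 0.0565). The genes of the 2 kinases follow. Ern1 was at 274 and 489 in Lrig1 ablation and 579 and 524 in Lrig1 control (-0.59 ± 0.25, limma adjusted p = 0.242), and Eif2ak3 at 216 and 204 in Lrig1 ablation and 255 and 244 in Lrig1 control (-0.25 ± 0.15, limma adjusted p = 0.418). Among the other degradation genes, Edem1, a lectin that hands misfolded glycoproteins on, differed by -0.52 ± 0.14 (limma adjusted p = 0.0868) and Sel1l, the scaffold of the ubiquitin ligase Syvn1, by -0.27 ± 0.13. Libraries of the ablation group were below both controls for Edem1 and Sel1l and overlapped them for Syvn1 (-0.11 ± 0.22).

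The other 13 chaperones lay between -0.47 (Creld2) and 0.69 (Sdf2l1) on the log2 scale and none passed limma, edgeR or DESeq2. Hspa5 had 2075 and 1704 in Lrig1 ablation, against 2473 and 2543 in Lrig1 control (-0.41 ± 0.16, limma adjusted p = 0.201). Sdf2l1, a partner of Hspa5 with few reads, had 42.6 and 15.1 in Lrig1 ablation and 21.0 and 11.3 in Lrig1 control, and its groups overlapped (0.69 ± 0.51, limma adjusted p = 0.506). Both ablation libraries were below both controls for 5 of 14 chaperones (Hspa5, Dnajb9, Dnajc3, Hyou1 and Creld2) and above them for 0 of 14. Over all tested genes the shares were 26.4% below and 21.4% above.

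In the Atf4 arm neither the regulators nor the amino acid genes all went the same way. Atf4 had 1011 and 998 in Lrig1 ablation and 1371 and 1308 in Lrig1 control, without overlap (-0.41 ± 0.16, limma adjusted p = 0.198). Trib3, a feedback inhibitor of Atf4, had 9.76 and 11.1 in Lrig1 ablation and 34.9 and 22.6 in Lrig1 control (-1.35 ± 0.41, limma adjusted p = 0.113). Cebpb, a transcription factor that partners Atf4 and also serves keratinocyte differentiation, had 505 and 569 in Lrig1 ablation and 1135 and 1169 in Lrig1 control (-1.10 ± 0.31, limma adjusted p = 0.0971). DESeq2 called it (-1.08, DESeq2 adjusted p = 0.0156), and the adjusted p over 17 alternatives was 0.00881 to 0.429. Ppp1r15a, which restores eIF2 by dephosphorylation, and Nupr1, a chromatin-binding stress protein, were also below both controls (-0.31 and -0.69). Ddit3 (CHOP), the pro-apoptotic factor of prolonged stress, had 114 and 181 in Lrig1 ablation and 164 and 124 in Lrig1 control, with overlap and a log2 difference of 0.01 ± 0.26. Asparagine synthetase (Asns, -0.39), Slc3a2, the partner subunit of Slc7a5 and Slc7a11 (-0.01), and the transcription factor Atf5 (0.12) overlapped their controls.

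Some amino acid genes split the Lrig1 ablation pair around its controls, whereas Slc7a11 was below both controls in both libraries. The chaperones Hsp90b1, Pdia3, Pdia4, Pdia6 and Dnajb11 split it in the same order. The share of all tested genes with this order is not given. Slc7a5, the large neutral amino acid transporter, had 1025 in Lrig1 ablation 1 and 272 in Lrig1 ablation 2, against 434 and 402 in Lrig1 control. Psat1, of serine synthesis, had 1978 in Lrig1 ablation 1 and 730.0 in Lrig1 ablation 2, against 832 and 816 in Lrig1 control. For both genes library 1 was far above the controls and library 2 below them, and Phgdh, the first enzyme of the same route, had the same order (742 and 324 in Lrig1 ablation, 414 and 520.2 in Lrig1 control). Their fitted differences of 0.34 ± 0.49, 0.54 ± 0.39 and 0.08 ± 0.35 therefore average opposite libraries. For Slc7a5 the difference was -0.62 without Lrig1 ablation 1 (limma adjusted p = 0.0196) and 1.29 without Lrig1 ablation 2 (limma adjusted p = 0.00186). Among the basal markers, Krt5, Krt14 and Col17a1 were also above both controls in library 1 and below both in library 2. Krt5 was at 78928 in Lrig1 ablation 1 and 29637 in Lrig1 ablation 2, against 33207 and 37784 in Lrig1 control. In Lrig1 ablation 2 Itga6, Itgb1 and Trp63 lay between the controls. Itgb4 was above both controls in both libraries (8202 and 4053, against 3551 and 3320), as was Krt15. The part of the basal markers in the result was not tested.

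Leaving out Lrig1 ablation 1 raised the members called in this comparison to 11, all lower, with 13.9% of all tested genes called. Leaving out Lrig1 ablation 2 raised them to 9, 7 of them lower, with 11.8% of all tested genes called; in both cases the lone ablation library was assumed to vary like the other groups. The 8 added without Lrig1 ablation 1 were Hspa5, Calr, Canx, Pdia3, Hyou1, Atf6, Asns and Slc7a5. Those added without Lrig1 ablation 2 were Xbp1, Ern1, Atf6 and Edem1, lower, and Psat1 and Slc7a5, higher. Markers of other cell states moved with the whole comparison. Of 12 differentiated keratinocyte markers 8 fell in Lrig1 ablation, and their sum was 36002 and 35279 in Lrig1 ablation, against 114898 and 129436 in Lrig1 control. Myeloid and Langerhans markers summed to 237 and 195 in Lrig1 ablation and to 1020 and 1407 in Lrig1 control, beside the endothelial sums given above. Immediate early genes, which cell dissociation is known to induce, summed to 45607 and 51469 in Lrig1 ablation and to 65467 and 61441 in Lrig1 control, with 16 of 19 negative. The share of the normalised total from mitochondrial genes was 3.14% and 4.14% in Lrig1 ablation, against 6.29% and 6.89% in Lrig1 control and 2.34% to 2.91% in the K14 libraries. Their part in the result was not tested.

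**Figure D3:**
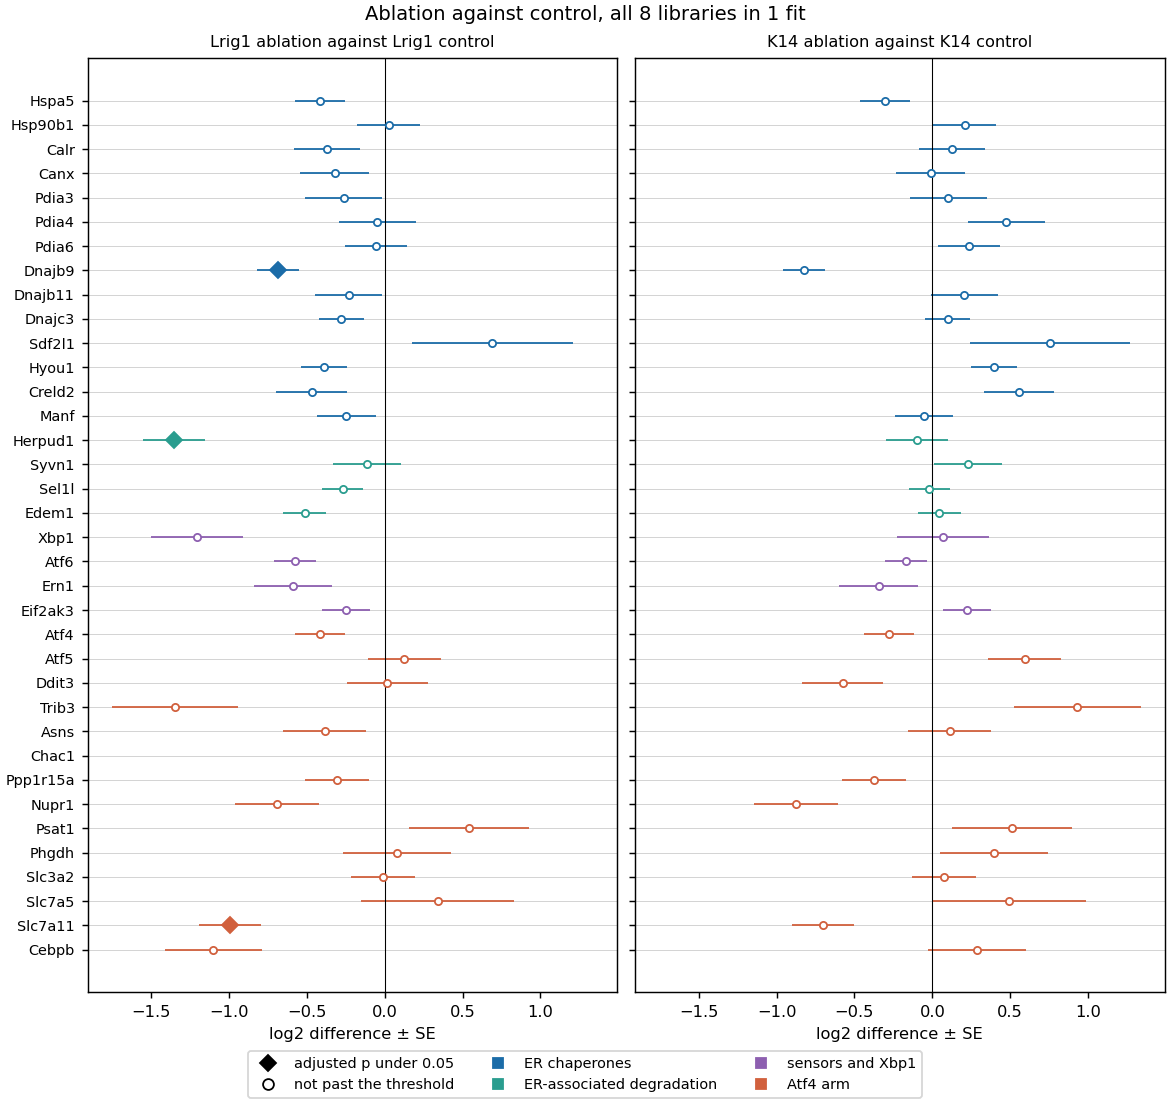
Log2 difference of ablation against control with its SE for each of the 35 tested members, Lrig1 in the left panel and K14 in the right; filled diamonds passed a limma adjusted p of 0.05. The only filled points are Dnajb9, Herpud1 and Slc7a11 in Lrig1, and Chac1 has no point because it was under the filter.

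In K14 ablation against K14 control 0 of 35 members passed the limma test, where 0.187% of all tested genes did. Members at an unadjusted p under 0.05 numbered 6, against 12.8% of all tested genes. By edgeR 0 members passed, against 32 of all 18140 tested genes. By DESeq2 1 passed, Dnajb9 (DESeq2 adjusted p = 0.0285), with 1.21% of all tested genes called. Dnajb9 had 263 and 269 in K14 ablation, against 467 and 478 in K14 control, pairs that were tight and well apart (-0.83 ± 0.14, limma adjusted p = 0.0832). Without either Lrig1 ablation library, which changes the shared estimate of spread and the genes tested (17975 without Lrig1 ablation 1 and 17741 without Lrig1 ablation 2), its limma adjusted p was 0.0141 to 0.0144 and Slc7a5 was called too, with 3.81% of all tested genes called without Lrig1 ablation 1 and 4.17% without Lrig1 ablation 2. Herpud1, by contrast, had 346 and 392 in K14 ablation and 409 and 380.0 in K14 control, with overlap (-0.10 ± 0.20).

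The chaperones of K14 ablation were mostly at or above control, with both ablation libraries above both controls in 7 of 14 (Calr, Pdia4, Pdia6, Dnajc3, Sdf2l1, Hyou1 and Creld2) and below them in Hspa5 and Dnajb9. The shares over all tested genes were 27.4% above and 25.7% below. Sdf2l1 had 53.8 and 52.5 in K14 ablation and 26.4 and 36.4 in K14 control (0.76 ± 0.51, limma adjusted p = 0.573). Hyou1, a large ER chaperone and nucleotide exchange factor, had 705 and 695 in K14 ablation and 530.1 and 533 in K14 control (0.40 ± 0.15, limma adjusted p = 0.334). Hspa5 stood on the other side of its control, at 2324 and 2822 in K14 ablation and 3193 and 3139 in K14 control (-0.31 ± 0.16, limma adjusted p = 0.468).

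Of the 13 tested Atf4 arm genes in K14 ablation, 5 had both libraries above both controls (Atf5, Trib3, Psat1, Phgdh and Slc7a5) and 5 below (Atf4, Ddit3, Ppp1r15a, Nupr1 and Slc7a11). Over all tested genes 27.4% were above and 25.7% below. Trib3 had 36.1 and 33.2 in K14 ablation and 13.2 and 23.6 in K14 control (0.93 ± 0.41, limma adjusted p = 0.392). Nupr1 had 84.9 and 91.1 in K14 ablation and 151 and 174 in K14 control (-0.88 ± 0.27, limma adjusted p = 0.266). Here the synthesis and import genes Psat1, Phgdh and Slc7a5 stood above control in both libraries, and Slc7a5 had 1498 and 1457 in K14 ablation, against 1025 and 1071 in K14 control (0.50 ± 0.49). Slc7a11 had 83.5 and 75.0 in K14 ablation and 134 and 125 in K14 control (-0.70 ± 0.20, limma adjusted p = 0.233), which is on the side where it was called in Lrig1.

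Among the degradation genes other than Herpud1, Syvn1 was above control in both K14 ablation libraries (0.23 ± 0.22), and Sel1l (-0.02 ± 0.13) and Edem1 (0.05 ± 0.14) overlapped. The transducers of K14 ablation were mixed. Xbp1 had 358 and 611 in K14 ablation and 467 and 427 in K14 control (0.07 ± 0.30), and Atf6 had 607 and 640.0 in K14 ablation and 692 and 712 in K14 control (-0.17 ± 0.14). Xbp1 split the ablation pair around its controls, whereas Atf6 was below them in both libraries. Ern1 had 327 and 373 in K14 ablation and 453 and 435 in K14 control (-0.35 ± 0.25), Eif2ak3 had 269.6 and 238 in K14 ablation and 214 and 221 in K14 control (0.22 ± 0.15), and Atf4 had 1162 and 1547 in K14 ablation and 1641 and 1611 in K14 control (-0.28 ± 0.16). Limma adjusted p-values of these 5 genes were 0.506 to 0.945. Sebocyte markers summed to 6037 and 22826 in K14 ablation, against 16851 and 16980 in K14 control, so Xbp1 and Cebpb (393 and 866 in K14 ablation, 459 and 498 in K14 control) were low and high in the same K14 ablation libraries as these markers. In the Lrig1 ablation pair this did not hold. There Xbp1 and Cebpb were higher in library 2, and the sebocyte markers except Awat1 and Awat2 were lower in it. Scd1 had 5753 in Lrig1 ablation 1 and 3699 in Lrig1 ablation 2. Myeloid and Langerhans markers split the K14 ablation pair in the same direction as the sebocyte markers, at 521 and 1718 in K14 ablation, against 439 and 577 in K14 control (8 of 8 tested positive, median 1.13). Fibroblast markers summed to 451 and 444 in K14 ablation, against 208 and 240.2 in K14 control, with 1 called higher by limma. Most of each sum was Fbln1 (325 and 321 in K14 ablation, 123 and 147 in K14 control). Of the 6 tested fibroblast markers 5 were positive and 1 negative. Immediate early genes summed to 72196 and 79703 in K14 ablation, against 107122 and 115468 in K14 control, with 17 of 19 negative. Differentiated keratinocyte markers were negative in 10 of 12 and positive in 2 (median -0.50), with 0 called by limma. At an unadjusted p under 0.05 there were 6 of these 12, against 12.8% of all tested genes. The part of these markers in the results of K14 ablation was not tested.

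Side by side, 8 members lay below both controls in both ablation comparisons: Hspa5, Dnajb9, Atf6, Ern1, Atf4, Ppp1r15a, Nupr1 and Slc7a11. They were 8 of the 9 below control in K14 ablation and 8 of the 18 below control in Lrig1 ablation, and 7.8% of all tested genes had this pattern. Another 5 (Dnajc3, Hyou1, Creld2, Eif2ak3 and Trib3) were above control in K14 ablation and below it in Lrig1 ablation, as were 6.31% of all tested genes. No member was above control in both, where 7.01% of all tested genes were. The difference of the ablation effects (Lrig1 minus K14) passed the limma test for 0 of 35 members, against 0.198% of all tested genes. At an unadjusted p under 0.05 there were 7, against 15% of all tested genes. Of the members edgeR and DESeq2 each called 0, against 32 and 308 of all 18140 tested genes.

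The difference was most negative for Trib3 (-2.28 ± 0.58, limma adjusted p = 0.143), Cebpb (-1.39 ± 0.44, limma adjusted p = 0.217), Xbp1 (-1.27 ± 0.42, limma adjusted p = 0.229) and Herpud1 (-1.26 ± 0.28, limma adjusted p = 0.112). It depended on the Lrig1 ablation pair. Without Lrig1 ablation 1 the difference was called for 10 members, among them Calr, Canx, Pdia3, Pdia4, Pdia6, Hyou1 and Creld2, all negative, with 11.2% of all tested genes called. Without Lrig1 ablation 2 it was called for 2, Herpud1 and Slc7a5, with 3.11% called, and without K14 ablation 1 for Cebpb alone, with 0.46% called. Herpud1 was called in both of the first 2 settings (-0.97, limma adjusted p = 0.0245, and -1.54, limma adjusted p = 0.0137), whereas Slc7a5 changed sign between them (-1.11 and 0.80).

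The ER chaperone arm and the Atf4 arm had the same sign of median difference in each ablation comparison with all libraries in the fit. In Lrig1 ablation against Lrig1 control the medians were -0.27 for the 14 chaperones (12 negative) and -0.31 for the 13 tested Atf4 arm genes (8 negative), with -0.02 over all tested genes. In K14 ablation against K14 control they were 0.17 (10 positive) and 0.11 (8 positive), with 0.00 over all tested genes. Without K14 ablation 2 the Atf4 arm median was -0.14, and the chaperone median was 0.033 without K14 ablation 1 and 0.23 without K14 ablation 2. The ranges of the arms were unlike in Lrig1, where the chaperones ran from -0.68 to 0.69 and the Atf4 arm from -1.35 to 0.54. In K14 they were close, at -0.83 to 0.76 and -0.88 to 0.93. Of the genes at the ends in Lrig1, Sdf2l1 and Trib3 had few reads and Psat1 averaged opposite libraries. No test was made between the arms.

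The ablation pairs differed within themselves. Lrig1 ablation 1 had its chaperones at the level of Lrig1 control (median log2 difference to the control mean -0.01, 7 of 14 above), and Lrig1 ablation 2 had all 14 below it (median -0.53). All 14 chaperones were higher in Lrig1 ablation 1 than in Lrig1 ablation 2, by a median of 0.52 on the log2 scale, where the median over all tested genes was 0.00 and the median size of the gap 0.47. The degradation genes and transducers went the other way, with 1 of 4 higher in library 1 in each list and medians of -0.33 and -0.46. For the 14 Atf4 arm genes, Chac1 included, the medians were -0.12 in Lrig1 ablation 1 and -0.43 in Lrig1 ablation 2, and 8 of 14 were higher in library 1. Without Lrig1 ablation 2 the chaperone median in Lrig1 was -0.01 and without Lrig1 ablation 1 it was -0.53. In K14 ablation the chaperone median was 0.23 in library 1 and 0.03 in library 2, and the Atf4 arm median 0.02 in library 1 and 0.15 in library 2.

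**Figure D4:**
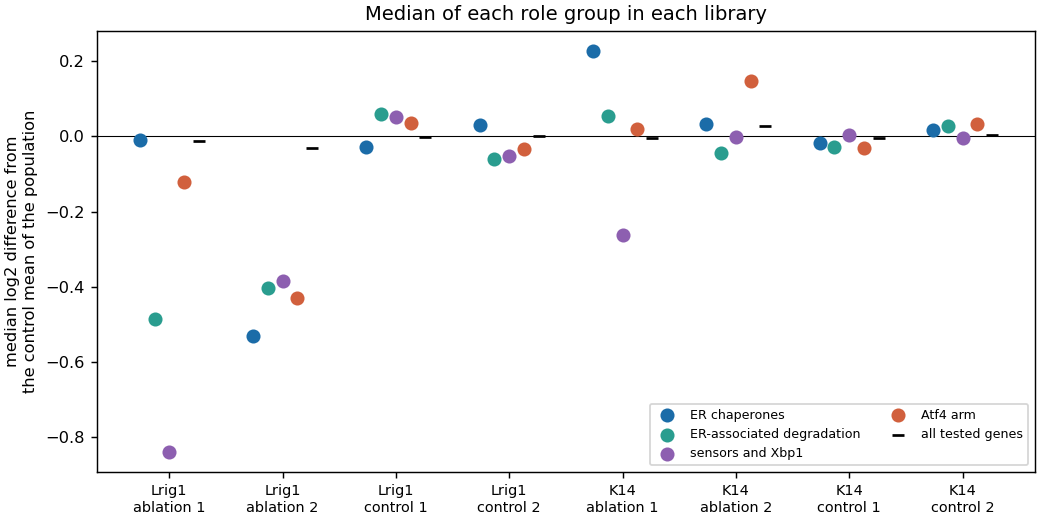
Median log2 difference of each arm's genes from the mean of the matching controls, for each of the 8 libraries. The chaperones of Lrig1 ablation 1 sit at -0.01 and those of Lrig1 ablation 2 at -0.53, while the transducers of these libraries sit at -0.84 and -0.39.

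Between the controls, Lrig1 control against K14 control, 3 of 35 members were higher (Herpud1, Xbp1 and Cebpb) and 0 lower, against 8.79% of all tested genes called and 6.52% called higher. Members at an unadjusted p under 0.05 numbered 5, against 24.4% of all tested genes. This comparison shares its Lrig1 control libraries with the Lrig1 ablation comparison, so the 2 sets of values are not independent. Herpud1 had 803 and 727 in Lrig1 control and 409 and 380.0 in K14 control (0.95 ± 0.20, limma adjusted p = 0.0267). Xbp1 had 1099 and 983 in Lrig1 control and 467 and 427 in K14 control (1.22 ± 0.30, limma adjusted p = 0.0426). Cebpb had 1135 and 1169 in Lrig1 control and 459 and 498 in K14 control (1.27 ± 0.31, limma adjusted p = 0.0445). Each gene was more than its replicate spread higher in Lrig1 control, and each call was lost when any 1 control library was left out. Far fewer of all tested genes were called in those settings too.

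The other transducers differed less between the controls, Atf6 by 0.28 ± 0.14, Ern1 by 0.31 ± 0.25, Eif2ak3 by 0.20 ± 0.15 and Atf4 by -0.28 ± 0.16. Serine synthesis and transport stood on the other side: Slc7a5 had 434 and 402 in Lrig1 control and 1025 and 1071 in K14 control (-1.32 ± 0.49, limma adjusted p = 0.145). Psat1 had 832 and 816 in Lrig1 control and 1707 and 1582 in K14 control (-0.99 ± 0.39, limma adjusted p = 0.161). DESeq2 called both as lower, beside Herpud1, Xbp1 and Cebpb, 5 members in all, with 8.93% of all tested genes called, and edgeR called 2, Herpud1 and Xbp1 (Cebpb at an edgeR adjusted p of 0.0515). The 4 control libraries were tight, and a fit of them alone called 19 members, 10 higher and 9 lower, with 42.9% of all tested genes called. In that fit Slc7a5, Psat1, Phgdh, Atf4, Ppp1r15a, Ddit3, Hspa5, Dnajb9 and Sdf2l1 were the lower ones. Without Lrig1 ablation 1 or without Lrig1 ablation 2, 6 members were called, Psat1, Phgdh and Slc7a5 being added as lower, with 19.7% and 19.9% of all tested genes called. The arm medians were -0.01 for chaperones and -0.21 for the Atf4 arm, against 0.00 over all tested genes. Of 12 differentiated keratinocyte markers 8 rose in Lrig1 control, their sum being 114898 and 129436 in Lrig1 control and 73963 and 69061 in K14 control, and endothelial markers summed to 965 and 1067 in Lrig1 control and 85.3 and 69.9 in K14 control. Mitochondrial genes made up 6.29% and 6.89% of the normalised total in Lrig1 control, against 2.91% and 2.90% in K14 control, and immediate early genes also differed, as given below. Their part was not tested.

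In Lrig1 ablation against K14 ablation 0 of 35 members passed limma, with 0.667% of all tested genes called. Of the members edgeR and DESeq2 also called 0, against 135 and 664 of all 18140 tested genes. At an unadjusted p under 0.05 there were 12, against 16.4% of all tested genes. All 14 chaperones and 10 of 13 Atf4 arm genes had a negative difference (medians -0.31 and -0.42, against -0.02 over all tested genes). Both Lrig1 ablation libraries were below both K14 ablation libraries for 8 of the 14 chaperones, and 6 overlapped. The share of all tested genes with this order is not given, so the count only describes these genes. The chaperone pattern leaned on Lrig1 ablation 2, where all 14 were lower than in Lrig1 ablation 1 (median gap of 0.52). In Lrig1 ablation 1 Canx, Pdia3 and Pdia6 were above both K14 ablation libraries, and in Lrig1 ablation 2 they were below both. Trib3 had 9.76 and 11.1 in Lrig1 ablation and 36.1 and 33.2 in K14 ablation (-1.64 ± 0.41, limma adjusted p = 0.132), with no overlap. Hyou1 had 524 and 421 in Lrig1 ablation and 705 and 695 in K14 ablation (-0.57 ± 0.15, limma adjusted p = 0.136). Without Lrig1 ablation 1 the count was 14, 13 of them lower and Ern1 higher, with 22.5% of all tested genes called. Xbp1, Herpud1 and Cebpb, which were higher in Lrig1 control than in K14 control, differed by -0.05 ± 0.30, -0.30 ± 0.20 and -0.12 ± 0.31 between the ablated groups.

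**Figure D5:**
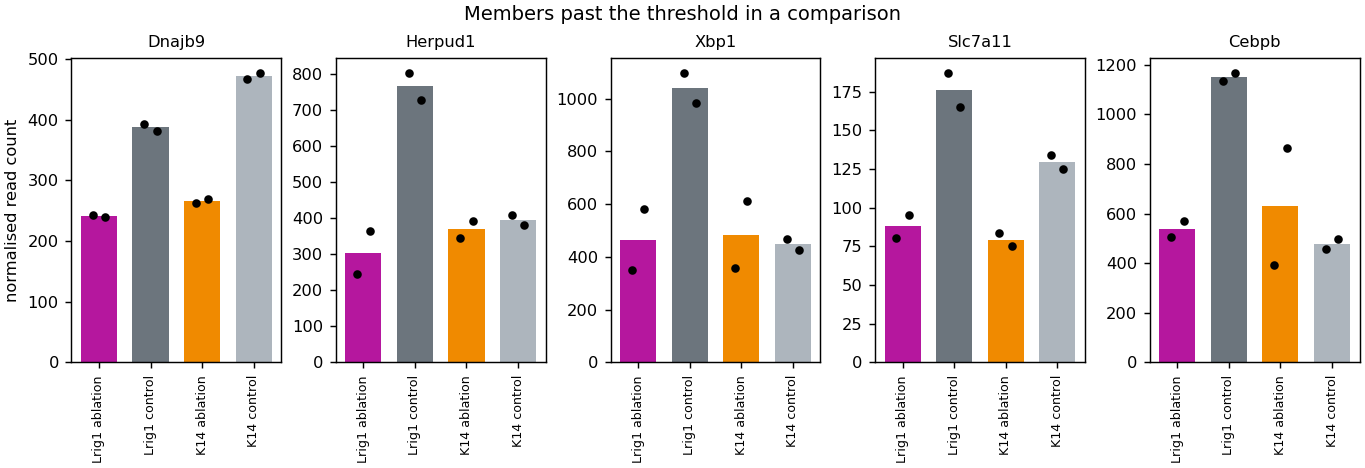
Normalised read count of the 5 members that passed a limma adjusted p of 0.05 in at least 1 comparison (Herpud1, Dnajb9, Slc7a11, Xbp1, Cebpb), as the mean of each group of 2 libraries (bars) with both libraries (points), Lrig1 ablation, Lrig1 control, K14 ablation and K14 control from left to right. Lrig1 control is the tallest bar for Herpud1, Xbp1, Cebpb and Slc7a11, and K14 control for Dnajb9.

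Wider lists of the same pathways and of stress genes held 15 further limma calls between the controls, 3 in Lrig1 ablation against Lrig1 control and 3 in Lrig1 ablation against K14 ablation. Of all tested genes 8.79%, 4.06% and 0.667% were called in these comparisons, in the same order. In K14 ablation 0 genes passed by limma in all 7 lists: 40 further ER folding and translocation genes, 19 degradation genes, 10 regulators such as Atf6b and the Creb3 family, 20 cytosolic aminoacyl-tRNA synthetases, 29 other integrated stress genes, 18 cytosolic heat shock genes and 19 immediate early genes; 2, 1, 2, 3, 5, 4 and 10 of them were at an unadjusted p under 0.05. Over all tested genes 12.8% were at an unadjusted p under 0.05 in K14 ablation. In these lists edgeR called 0 genes in K14 ablation, against 32 of all 18140 tested genes. DESeq2 called 1.21% of all tested genes there and 7 genes of these lists: Atf3, Hspa1b, Dusp1, Fos, Fosl1, Klf4 and Nr4a1. In Lrig1 ablation Sesn2, a leucine sensor and Atf4 target, fell by 0.85 ± 0.18 on the log2 scale (limma adjusted p = 0.0466) and Hspb1, a small heat shock protein of differentiating keratinocytes, fell by 1.34 ± 0.17 (limma adjusted p = 0.00886). Klf4, a transcription factor of the epidermal barrier that is also an immediate early gene, fell by 0.95 ± 0.20 (limma adjusted p = 0.0381), and the other genes of the lists did not pass limma. Here edgeR called 1 gene of these lists, Hspb1, and DESeq2 called 7: Hspb1, Klf4, Ube2g2, Atf3, Slc1a4, Dusp1 and Fosl1. Of all 18140 tested genes edgeR called 588 in this comparison and DESeq2 called 995.

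The aminoacyl-tRNA synthetases, classic Atf4 targets, had 0 of 20 calls by limma, edgeR or DESeq2 in every comparison, with medians of -0.04 in Lrig1 ablation and 0.19 in K14 ablation against control. In Lrig1 ablation against K14 ablation all 20 were negative (median -0.34). Of these 5 were at an unadjusted p under 0.05, against 16.4% of all tested genes. Between the controls, Ero1l, the oxidase that regenerates disulfide isomerases, was higher in Lrig1 control by 0.94 ± 0.20 (limma adjusted p = 0.0259), as was the ER-bound transcription factor Creb3l1 (2.61 ± 0.62, limma adjusted p = 0.0402). Its relative Creb3l4 and the secreted factor Gdf15 also passed limma, but with few reads in K14 control, so no fold is given. Creb3l4 had 25.6 and 28.2 in Lrig1 control and 8.12 and 2.95 in K14 control. Gdf15 had 16.3 and 14.1 in Lrig1 control and 0.0 and 0.985 in K14 control, both K14 values being under the floor of 3 reads, and DESeq2 did not call it. Atf3 fell by 1.49 ± 0.15 in Lrig1 control (limma adjusted p = 0.00318), the amino acid transporter Slc38a2 by 1.28 ± 0.23 (limma adjusted p = 0.0161) and the cytosolic chaperone Hsp90aa1 by 0.80 ± 0.19 (limma adjusted p = 0.0394). Of 19 immediate early genes 8 fell in Lrig1 control (Fos, Fosb, Fosl1, Jun, Junb, Dusp1, Nr4a1 and Nfkbia), and the sum of all 19 was 65467 and 61441 in Lrig1 control and 107122 and 115468 in K14 control. In Lrig1 ablation against K14 ablation Atf3 (-1.22 ± 0.15, limma adjusted p = 0.0255), Junb (-1.01 ± 0.16, limma adjusted p = 0.0419) and Nfkbia (-0.87 ± 0.14, limma adjusted p = 0.0425) fell. Over these lists edgeR called 14 genes between the controls and 3 between the ablated groups, and DESeq2 called 21 between the controls and 11 between the ablated groups. Of all 18140 tested genes edgeR called 1396 between the controls and 135 between the ablated groups. The DESeq2 counts over all tested genes were 1619 and 664. The part of the immediate early genes in the results on members was not tested.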

How the data were processed

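RNA was measured by sequencing of polyA RNA in 8 libraries; per the labels' protocols, RNA of sorted cells was extracted with a RNeasy Micro kit and made into libraries with the Ovation Solo system. Per the submitters' processing notes, Trimmomatic, STAR, Picard and HTSeq 0.11.1 were used on build GRCm38 (mm10); the sources used here state neither their settings, strand handling included, nor the annotation they counted on. The authors deposited a normalised signal per gene, whose values are whole multiples of a step per library (100% within a tolerance of 0.001), so reads were recovered from them. The sources used here do not name the program that normalised them. The columns of the 4 ablation libraries carry another word than the labels and were matched to the ablation groups, the only ones left.

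Tests used limma 3.58.1 in R 4.3.3 on log2(value + 1) with a variance trend, in 1 fit of 4 group means over 8 libraries (4 residual and 4.13 prior degrees of freedom), with Benjamini-Hochberg adjustment over the 18140 genes that reached 1e-06 of the library total in 2 libraries. Low genes have their fold understated on this scale. The alternatives were edgeR 4.0.16 and DESeq2 1.42.0 on recovered reads, other pseudocounts and scalings, no filter, a fit of the compared groups alone, a replicate block and leaving out each library. The procedure was tested on simulated data in which all groups had the same spread. That test does not cover ablation pairs that vary more than control pairs. Replicates differed by more than sampling noise in all 4 groups (chi-square per gene of 39.5 in the Lrig1 ablation pair, 2.58 in its control pair, 27.7 in the K14 ablation pair and 1.57 in its control pair) and counted as 2. Coordinates and exon lengths came from the GENCODE release M21 annotation.

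Members and lists were chosen with earlier results of these data known. Named with full values were every member past the threshold, the 2 chaperones and 2 Atf4 arm genes of largest difference in each ablation comparison, and the transducers Xbp1, Atf6, Ern1, Eif2ak3 and Atf4; other members were named after their values were seen. Genes of wider lists were named where they passed limma. Protein sequences planned for the chaperones were not used here.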

Additional observations from a re-analysis of the deposited data

How the results depend on the processing

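With 2 libraries per group, calls near the threshold moved with the settings. In Lrig1 ablation against Lrig1 control the 3 became 0 in a fit of the compared groups alone, 1 (Herpud1) with the replicate block, 2 with no filter (Dnajb9 lost, adjusted p = 0.0538), 2 with upper-quartile scaling (Slc7a11 lost, 0.0532) and 4 by DESeq2 (Xbp1 and Cebpb added, Dnajb9 lost, 0.0616). Of all tested genes 737 of 18140 were called in the main fit. In these settings the counts were 170 of 17273, 504 of 18140, 565 of 32306, 612 of 18140 and 995 of 18140, in the same order. Same-numbered libraries did not vary together (correlations of -0.05 to 0.08), so the numbers were not taken to pair them. The replicate block changed no other count of members called. In Lrig1 control against K14 control the 3 became 1 with no filter, 2 by edgeR (Cebpb lost, 0.0515), 5 by DESeq2 and 19 in a fit of the compared groups alone. Of all tested genes 1594 of 18140 were called in the main fit. In these settings the counts were 1289 of 32306, 1396 of 18140, 1619 of 18140 and 7323 of 17057, in the same order. In K14 ablation against K14 control the 0 became 1 by DESeq2, where 1.21% of all tested genes were called. The chaperone median of 0.17 became 0.10 with upper-quartile scaling. The causes were not tested.

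Leaving out 1 library at a time gave 0 to 11 members called in Lrig1 ablation against Lrig1 control, 0 to 2 in K14 ablation against K14 control, 0 to 6 in Lrig1 control against K14 control, 0 to 14 in Lrig1 ablation against K14 ablation and 0 to 10 for the difference of effects. The number of all tested genes called also varied widely between these settings. In the same order of comparisons, chaperone medians ran from -0.53 to -0.01, 0.033 to 0.23, -0.053 to 0.077, -0.59 to -0.13 and -0.69 to -0.016. Atf4 arm medians ran from -0.44 to -0.27, -0.14 to 0.29, -0.27 to -0.10, -0.69 to -0.21 and -0.66 to -0.036. The K14 Atf4 arm median of -0.14 was without K14 ablation 2. Slc7a5 in Lrig1 ablation against Lrig1 control was 0.34 with all libraries and ran from -0.62 without Lrig1 ablation 1, a reversal, to 1.29 without Lrig1 ablation 2. Its difference of effects, -0.16 with all libraries, ran from -1.11 without Lrig1 ablation 1 to 0.80 without Lrig1 ablation 2, a reversal. In Lrig1 ablation, Herpud1 was called in 12 of 17 alternatives (adjusted p of 4.17e-05 to 0.177), Slc7a11 in 10 (0.0157 to 0.278) and Dnajb9 in 9 (0.0170 to 0.281). Genes with few reads, Chac1, Trib3 and Sdf2l1, are limited by depth.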
